A study of Homo sapiens with 18 samples.

Results

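The comparison covers 2 inhibitors of the same enzyme pair in 1 cell line: A366 against UNC0642 in Mel92.1, 3 RNA-seq libraries each, 6 of the 18 samples of the series. EHMT2 (G9a) and its partner EHMT1 (GLP) add methyl groups to lysine 9 of histone H3, and the dimethyl mark they leave (H3K9me2) accompanies silent genes in euchromatin. Both compounds are known as inhibitors of this pair. Genes are said to part them where their level differed between the A366 and the UNC0642 libraries. The share of ribosomal RNA also differed between these libraries on average.

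The study treated the uveal melanoma lines Mel92.1 and MP41, tumour lines of the pigment cells of the eye, with A366 or UNC0642 at 1 µM for 48 h or with the solvent DMSO, in 3 replicates per group, and the series describes the replicates as biological. All 6 libraries compared are Mel92.1 cells without any genetic change made by the study, and dose and time were the same for both compounds. The libraries were chosen by their place in the count table. A366 replicate 1 carries the label of Mel92.1, while A366 replicates 2 and 3 carry the label MP41. Their place in Mel92.1 follows the study's own listing of its libraries. With the libraries in their labelled groups, 2 MP41 libraries would stand among the A366 libraries of Mel92.1.

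The placement was checked on the counts. Genes that the DMSO libraries express in MP41 but not in Mel92.1 summed to 0.26% or less of their MP41 level in the 9 Mel92.1 libraries so placed, and genes found in Mel92.1 but not in MP41 summed to between 65.1% and 116% of their DMSO level. The melanocytic markers MITF (263 to 327 CPM, the read count scaled to the library total), SOX10 (501 to 579 CPM), TYRP1 and PMEL were high in all 9, DCT stayed between 1.08 and 9.72 CPM, and S100B did not exceed 0.759 CPM. Defining markers of other cells were at 0 throughout (CD3E, CD3D, MS4A1, KRT5, KRT19, CDH5, TEK), although CD68 (23.9 to 33.1 CPM), LUM (24.9 to 29.2 CPM), COL1A1 (7.45 to 20.5 CPM) and KRT18 (6.13 to 8.86 CPM) were present in all libraries. In bulk RNA, fewer cells of a type and less RNA per cell cannot be told apart.

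The 9 Mel92.1 libraries held between 23601156 and 62941462 counts. UNC0642 replicate 1 stood apart, with the lowest total and 32.8% of its counts in ribosomal RNA genes, against 10.1% and 19.5% in the other UNC0642 libraries, 7.43% to 12.2% with A366 and 6.50% to 12.5% with DMSO. Every comparison was therefore also fitted without it, and where no second value stands beside a gene that passed, it passed in both fits. The share of ribosomal RNA was higher with UNC0642 than with A366 on average, and when that share entered the fit as a covariate, a choice made after seeing the data, 3 genes passed: OLFML2A, ZC3H13 and IDH1. The other 21 of the 24 genes described next kept their direction there, with differences between 0.716 and 1.225 times those without the covariate and adjusted p between 0.0569 and 0.4165.

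The inhibitors were parted by few genes. Of 14528 genes tested with edgeR's quasi-likelihood test on the 9 Mel92.1 libraries, 24 (0.165%) passed an adjusted p of 0.05 for A366 against UNC0642, 15 higher with A366 (0.103%) and 9 lower (0.0619%). For scale, 100 genes (0.688%) passed for UNC0642 against DMSO and 31 (0.213%) for A366 against DMSO, contrasts that share libraries with each other and with the comparison of the inhibitors. Without UNC0642 replicate 1 the spread between replicates was smaller (biological coefficient of variation 0.119 against 0.175), and 47 of 14776 genes passed (0.318%), 30 higher (0.203%) and 17 lower (0.115%) with A366. 23 of the 24 genes were among the 47, each in the same direction, and ASAH1 was the exception.

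The number of genes past the threshold depended on the libraries and on the scaling. With A366 replicate 1 as the only A366 library, the one whose label names Mel92.1, no gene passed edgeR's quasi-likelihood test (223 at an unadjusted p under 0.05). In that fit the lone library is assumed to vary like the other groups, and each of the 24 kept its direction, with differences between 0.8345 and 1.088 times those of all 9 libraries. With the libraries in their labelled groups no gene passed either (3754 at an unadjusted p under 0.05), and 11 of the 24 changed sign. Under library size alone as the scaling, the median of all genes shifted to 0.25 on the log2 scale and 10 genes passed, 9 higher and 1 lower with A366, in place of 15 and 9.

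The genes higher with A366 were led by a transcription factor, a long noncoding RNA and secreted, membrane and adaptor proteins. NFATC2, a calcium-regulated transcription factor of the NFAT family (chromosome 20, 51386957 to 51562831, minus strand, hg38), stood at 1.11, 0.640 and 0.668 CPM with UNC0642, at 2.91, 3.63 and 3.47 CPM with A366 and at 2.498, 2.40 and 2.11 CPM with DMSO. All A366 libraries exceeded all UNC0642 libraries. The difference of A366 from UNC0642 was 2.09 ± 0.30 (fitted log2 difference ± SE, adjusted p = 0.0365, edgeR), a 4.25-fold higher level, and 2.35 without UNC0642 replicate 1 (adjusted p = 0.0030).

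BANCR, a long noncoding RNA expressed in melanoma cells (chromosome 9, 69296682 to 69311111, minus strand), rose with both compounds and further with A366. Its level was 0.549, 0.441 and 0.852 CPM with DMSO, 2.501, 3.22 and 2.04 CPM with UNC0642 and 9.39, 8.07 and 9.20 CPM with A366. The 3 groups did not overlap. A366 exceeded UNC0642 by 1.78 ± 0.27 on the log2 scale (adjusted p = 0.0402, edgeR; 0.0268 without UNC0642 replicate 1). DOK5, an adaptor of receptor tyrosine kinases, had the same order of groups, with 7.61 to 8.47 CPM in DMSO, 10.97 to 13.4 CPM with UNC0642 and 22.3 to 22.9 CPM with A366. Its difference between the inhibitors was 0.88 ± 0.11 (log2, adjusted p = 0.0124).

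ANXA1 and SFRP1 overlapped their DMSO levels with UNC0642 and lay above them with A366. ANXA1, a calcium-dependent phospholipid-binding protein (chromosome 9, 73151757 to 73170393, plus strand), measured 19.6, 23.0 and 23.5 CPM with DMSO, 19.7, 22.9 and 21.3 CPM with UNC0642 and 43.2, 42.4 and 47.5 CPM with A366. The DMSO and UNC0642 libraries overlapped and the A366 libraries lay above both, by 1.06 ± 0.10 over UNC0642 (log2, adjusted p = 0.0034, edgeR) and by 1.01 over DMSO (adjusted p = 0.0029). SFRP1, a secreted antagonist of Wnt signalling, had 127 to 145 CPM with DMSO, 139 to 158 CPM with UNC0642 and 224 to 249 CPM with A366, a difference of 0.70 ± 0.08 (log2, adjusted p = 0.0072).

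For another set of genes the A366 libraries stayed near DMSO and the UNC0642 libraries lay below. OLFML2A, an olfactomedin-domain protein of the extracellular space (chromosome 9, 124777158 to 124814885, plus strand), stood at 28.7, 29.4 and 29.5 CPM with DMSO, 12.1, 12.6 and 13.2 CPM with UNC0642 and 26.1, 26.5 and 25.6 CPM with A366. No UNC0642 library came near the other groups. The level with A366 was 2.06-fold that with UNC0642 (log2 difference 1.04 ± 0.08, adjusted p = 0.0014, edgeR; 0.0010 without UNC0642 replicate 1), UNC0642 fell by 1.21 against DMSO (log2, adjusted p = 0.000216), and A366 differed from DMSO by -0.16 (adjusted p = 1).

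HSPB7, a small heat shock protein best known from heart and muscle, had 28.2 to 33.3 CPM with DMSO, 13.95 to 15.6 CPM with UNC0642 and 28.2 to 30.6 CPM with A366, and parted the inhibitors by 0.99 ± 0.10 (log2, adjusted p = 0.0034). AJUBA, a LIM-domain scaffold that restrains the Hippo kinases, had 30.7 to 32.3 CPM, 17.8 to 22.3 CPM and 34.3 to 35.7 CPM with DMSO, UNC0642 and A366, with a difference of 0.79 ± 0.09 (log2, adjusted p = 0.0118). In both genes the UNC0642 libraries lay below all the others, and UNC0642 differed from DMSO (adjusted p = 0.00096 and 0.0136).

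In WFDC1, CD36, TRIM16L and ADAM23, the fitted level was below DMSO with UNC0642 and above it with A366, and with all 9 libraries neither contrast with DMSO passed the test. WFDC1, a secreted protein with a whey acidic protein domain, reached 98.3 to 119 CPM with UNC0642, 126 to 156 CPM with DMSO and 181 to 211 CPM with A366, so that the inhibitors parted by 0.87 ± 0.11 (log2, adjusted p = 0.0124). CD36, a scavenger receptor that takes up fatty acids, was the gene on which UNC0642 replicate 1 weighed most among these, with 35.3 CPM there, 48.7 and 50.7 CPM in the other UNC0642 libraries, 62.9 to 67.8 CPM with DMSO and 75.9 to 79.2 CPM with A366. Its difference was 0.79 ± 0.12 (log2, adjusted p = 0.0402), and 0.65 without that library (adjusted p = 0.0062), where UNC0642 also passed below DMSO (-0.40, adjusted p = 0.0247). TRIM16L (0.78) shares near-identical sequence with TRIM16, so its reads could be split between them, and ADAM23, a membrane protein of the disintegrin family, differed by 0.55.

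**Figure D1:**
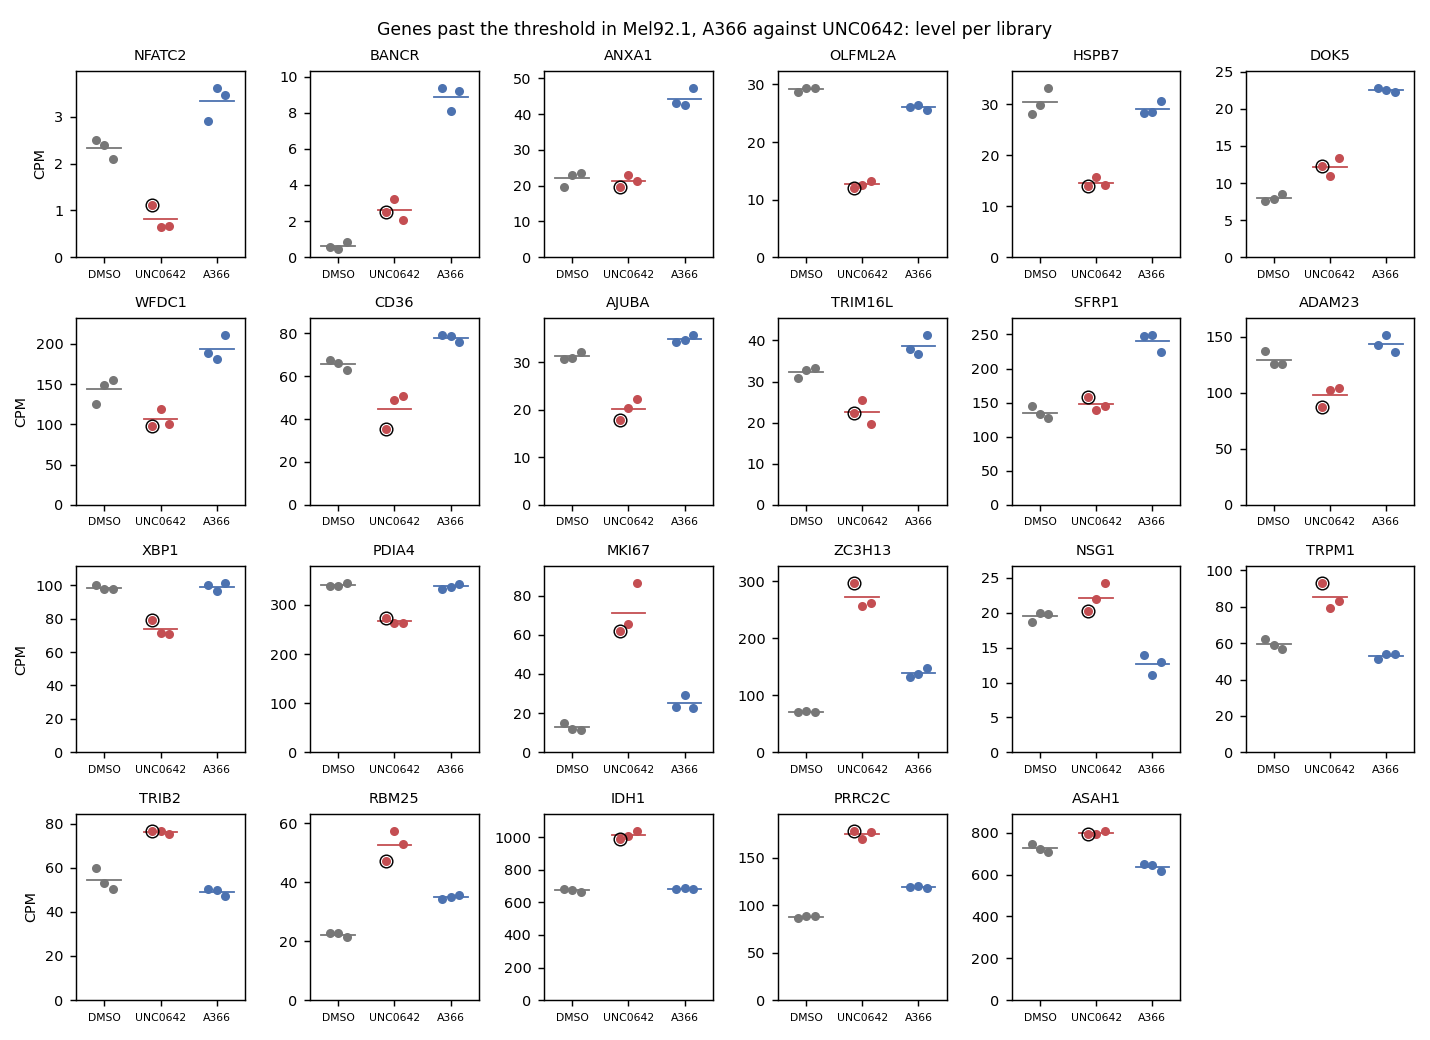
Level of 23 of the 24 genes past the threshold (CPM on a linear axis that starts at 0) in each DMSO, UNC0642 and A366 library of Mel92.1, with a line at the group mean and a ring around UNC0642 replicate 1. In each panel the 3 UNC0642 and the 3 A366 libraries do not overlap, whereas the DMSO libraries lie nearer to A366 in OLFML2A, XBP1, PDIA4 and IDH1 and nearer to UNC0642 in ANXA1 and SFRP1.

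The genes lower with A366 included nuclear RNA-processing proteins that both compounds raised. ZC3H13, a subunit of the complex that writes N6-methyladenosine in RNA (chromosome 13, 45954465 to 46052759, minus strand), measured 71.2, 72.3 and 71.0 CPM with DMSO, 297, 256 and 261 CPM with UNC0642 and 133, 137 and 147 CPM with A366. The 3 groups were fully apart. A366 was below UNC0642 by 0.97 on the log2 scale (-0.97 ± 0.07, adjusted p = 0.0014, edgeR; -0.90 and 0.0010 without UNC0642 replicate 1), while both compounds exceeded DMSO, by 1.92 (UNC0642, adjusted p = 2.94e-06) and 0.96 (A366, adjusted p = 0.000432).

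RBM25, a splicing factor, rose from 21.4 to 22.7 CPM with DMSO to 34.3 to 35.7 CPM with A366 and 47.0 to 57.5 CPM with UNC0642. PRRC2C, a large proline-rich protein, rose from 86.0 to 88.6 CPM with DMSO to 118 to 121 CPM with A366 and 170 to 178 CPM with UNC0642. Both differences between the inhibitors passed (RBM25 -0.59 ± 0.09, adjusted p = 0.0402; PRRC2C -0.55 ± 0.05, adjusted p = 0.0034). MKI67, which encodes the Ki-67 protein of dividing cells (chromosome 10, 128096659 to 128126385, minus strand), had the largest fall among the 9, with 11.3 to 15.2 CPM in DMSO, 61.7, 65.3 and 86.5 CPM with UNC0642 and 23.2, 29.4 and 22.7 CPM with A366. A366 was 2.84-fold below UNC0642 (log2 difference -1.50 ± 0.16, adjusted p = 0.0072), UNC0642 exceeded DMSO by 2.47 (adjusted p = 0.000216), and A366 exceeded DMSO by 0.97 without passing (adjusted p = 0.0630), although the same difference passed without UNC0642 replicate 1 (adjusted p = 0.0297).

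MKI67 was the one mitotic gene that passed. Of 39 genes of mitosis tested, 4 were higher and 2 lower at an unadjusted p under 0.05 (3.32% and 3.88% of all genes were). Their median difference was 0.02, beside 0.01 over all genes. CENPF, a kinetochore protein with a long transcript, had the lowest unadjusted p of the rest, with 116, 117 and 133 CPM with UNC0642, 87.6, 98.0 and 81.5 CPM with A366 and a difference of -0.45 (adjusted p = 0.453). The 9 genes lower with A366 had a median transcript length of 6004 bases. It was 3443 for the 15 higher genes and 3584 for the genes that did not pass. Their median GC content was 45.3% against 50.04% and 48.5%. Without UNC0642 replicate 1 the difference in length was not seen. The 17 lower genes then had a median of 3996 bases, the 30 higher genes 4145 and the genes that did not pass 3564. The difference in median GC content remained in that fit, at 45.3% for the lower genes, 49.7% for the higher and 48.5% for those that did not pass. The part of length in the result was not tested. With an offset for GC content 36 genes passed, 22 of the 24 among them.

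IDH1 had the smallest standard error among the lower genes. This cytosolic enzyme makes NADPH from isocitrate (chromosome 2, 208236227 to 208266074, minus strand), and it measured 683, 677 and 663 CPM with DMSO, 989, 1010 and 1042 CPM with UNC0642 and 683, 686 and 680.3 CPM with A366. The A366 libraries lay at the DMSO level and all UNC0642 libraries above, a difference of -0.57 ± 0.05 (log2, adjusted p = 0.0015). TRIB2, a pseudokinase, was also highest with UNC0642, with 50.5 to 59.9 CPM in DMSO, 75.4 to 76.9 CPM with UNC0642 and 47.1 to 50.4 CPM with A366 (-0.63 ± 0.08, adjusted p = 0.0124).

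NSG1, an endosomal protein best known from neurons, was lower with A366 than in any DMSO or UNC0642 library, at 11.1 to 13.96 CPM against 18.7 to 19.97 CPM and 20.2 to 24.3 CPM, a difference of -0.81 ± 0.12 from UNC0642 (adjusted p = 0.0365). ASAH1, the lysosomal acid ceramidase, parted the inhibitors least, at 793, 793 and 812 CPM with UNC0642 and 650.3, 648 and 618 CPM with A366 (-0.32 ± 0.05, adjusted p = 0.0418), and did not pass without UNC0642 replicate 1 (adjusted p = 0.0623). The next genes down the order did not pass: C1orf21 (-0.45, adjusted p = 0.0505) and NEFH, a neurofilament subunit (-0.41, adjusted p = 0.0579). The read-through model RPL17-C18orf32 was at 0 in all A366 libraries and at 0.480 to 2.23 CPM with UNC0642, and since it shares its exons with RPL17 and C18orf32 its counts depend on how reads were divided.

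**Figure D2:**
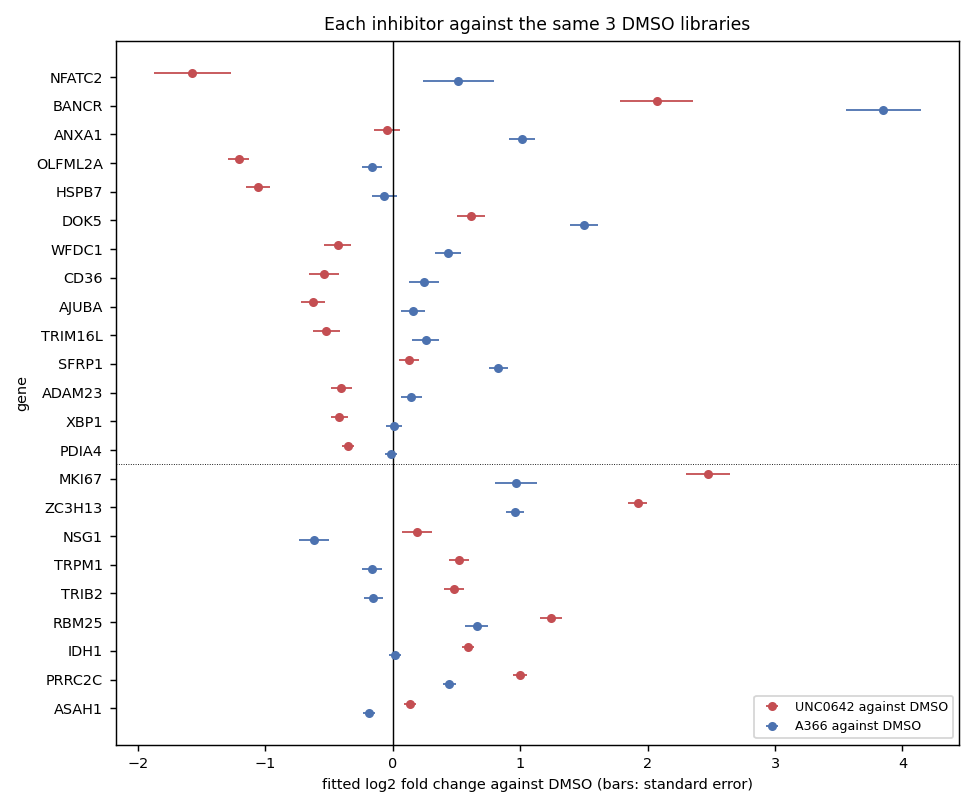
Fitted log2 fold change of 23 of the 24 genes with UNC0642 (red) and with A366 (blue) against the same 3 DMSO libraries of Mel92.1, with standard errors as bars and a dotted line between the genes higher and lower with A366. Since both contrasts use the same DMSO libraries, their likeness is no result: OLFML2A lies at -1.21 with UNC0642 and -0.16 with A366, ANXA1 at -0.05 and 1.01, and ZC3H13 at 1.92 and 0.96.

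Leaving out UNC0642 replicate 1 added 24 genes and lost ASAH1. HTR2B, a serotonin receptor, had the lowest adjusted p of those added, with 26.5 to 27.4 CPM in DMSO, 5.95 CPM in UNC0642 replicate 1, 13.3 and 13.5 CPM in the other UNC0642 libraries and 27.2 to 28.5 CPM with A366. All UNC0642 libraries lay below the rest in both fits, and the difference of 1.05 ± 0.07 without that library passed (adjusted p = 0.0010) where 1.31 with it did not (adjusted p = 0.0928). HTN1, a histatin known from saliva, was the opposite case, with 15.1, 7.06 and 6.55 CPM in the UNC0642 libraries, 2.39 to 2.74 CPM with A366 and a difference of -1.42 without replicate 1 (adjusted p = 0.0062).

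SERPINE2, a secreted inhibitor of serine proteases, had 30.2, 45.2 and 45.3 CPM with UNC0642 and 65.3 to 68.9 CPM with A366, a difference of 0.57 ± 0.06 without replicate 1 (adjusted p = 0.0069). CYR61, a matricellular protein, had 9.95 CPM in UNC0642 replicate 1, 6.50 and 5.91 CPM in the others and 12.6 to 12.9 CPM with A366, a difference of 1.04 ± 0.10 (adjusted p = 0.0062). The other genes added were IL2RB, NRCAM, EML6, SYBU, SORBS2, ARMC9, C1orf116, C1orf198, ELFN1, PLK2, RIMS2 and SGK223, higher with A366, and EEF1A2, AKAP9, C10orf11, FGFBP3, KIAA1191, NARS2, POU3F1 and ST3GAL6, lower, with adjusted p between 0.0069 and 0.0471.

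No difference in the RNA of the inhibited enzymes was detected between the compounds in Mel92.1. EHMT2 measured 98.1, 97.9 and 100.2 CPM with DMSO, 70.9, 93.8 and 93.9 CPM with UNC0642 and 94.1, 99.2 and 100.4 CPM with A366. UNC0642 replicate 1 was the low value. The difference was 0.18 (95% interval -0.05 to 0.40, log2) and 0.06 without that library (-0.08 to 0.20), and that of EHMT1 was -0.04 (-0.26 to 0.19) and 0.06 without it. Neither compound is directed at the RNA of its target, so the level of EHMT2 is no check of the treatment.

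Of the 8 genes that the study chose on these same samples as raised by both inhibitors in both lines, BANCR alone parted the compounds, and 7 of the 8 fitted differences lay above 0 with a median of 0.17 (7 of 8 and 0.29 without UNC0642 replicate 1). SLAMF7, a receptor of natural killer and other immune cells, measured 27.8 to 28.5 CPM with DMSO, 52.3, 59.8 and 61.6 CPM with UNC0642 and 61.2 to 62.4 CPM with A366. The inhibitors differed by 0.09 there, with an interval of -0.08 to 0.26, and by 0.02 without UNC0642 replicate 1. For AZGP1, a secreted zinc-binding glycoprotein, the levels were 0.549 to 1.08 CPM with DMSO, 6.89, 3.94 and 3.50 CPM with UNC0642 and 5.18, 3.79 and 4.66 CPM with A366. The groups of the inhibitors overlapped, and the interval was wide (-0.06, -0.78 to 0.66, and 0.29, -0.25 to 0.83, without UNC0642 replicate 1).

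The other 5 left as much room. NOX5, an NADPH oxidase, differed by 0.15 (-0.31 to 0.61) and KRT23, a keratin, by 0.19 (-0.43 to 0.82). BST2, an interferon-induced membrane protein that tethers virus particles, differed by 0.80 (-0.10 to 1.70), LINC00426, a long noncoding RNA, by 0.63 (-0.08 to 1.34) and SERPINA1, the antitrypsin gene, by 0.10 (-0.86 to 1.06). In BST2, LINC00426 and SERPINA1 the lowest level of all treated libraries was that of UNC0642 replicate 1. Without that library the differences were 0.53 for KRT23 (0.12 to 0.94), 0.29 for LINC00426 (0.02 to 0.57), 0.51 for BST2 (-0.06 to 1.07) and -0.29 for SERPINA1 (-0.63 to 0.05), so that 2 of the intervals no longer held 0 and SERPINA1 changed sign, while none of the 4 passed the adjusted threshold.

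Chaperones and folding enzymes of the endoplasmic reticulum were on the side of A366. When unfolded proteins build up in that compartment, the factors ATF6 and XBP1 are activated and bind the endoplasmic reticulum stress element of promoters, which raises chaperones such as HSPA5 (BiP). Of 22 such genes tested, XBP1 and PDIA4 passed higher with A366 and none lower, 10 were higher at an unadjusted p under 0.05 (3.32% of all genes were), and in 11 all A366 libraries exceeded all UNC0642 libraries (7.91% of all genes did). The fitted difference lay above 0 in 20 of 22, with a median of 0.17 beside 0.01 over all genes, and above 0 in 22 of 22 with a median of 0.195 without UNC0642 replicate 1. Under library size alone it was above 0 in 22 of 22 with a median of 0.41, beside the shift of 0.25 in all genes.

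The promoter letters of 3 of these genes are shown because the list was drawn up as targets of ATF6 and XBP1. Each window runs from 250 bases before to 50 bases after the start of transcription, 5′ to 3′ on the strand of the gene, from RefSeq on GRCh38.p14: XBP1 at chr22:28800520-28800819 (minus strand), HSPA5 at chr9:125241294-125241593 (minus strand) and HSP90B1 at chr12:103930160-103930459 (plus strand). Capitals mark the fixed letters of the stress element, CCAAT and CCACG with 9 bases of any kind between them, read on either strand.
XBP1: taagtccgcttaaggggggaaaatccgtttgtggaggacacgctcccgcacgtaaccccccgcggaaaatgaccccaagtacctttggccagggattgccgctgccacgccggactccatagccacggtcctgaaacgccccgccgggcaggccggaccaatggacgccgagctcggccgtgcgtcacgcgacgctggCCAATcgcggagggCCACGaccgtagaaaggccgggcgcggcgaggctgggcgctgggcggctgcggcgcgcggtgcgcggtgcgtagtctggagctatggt
HSPA5: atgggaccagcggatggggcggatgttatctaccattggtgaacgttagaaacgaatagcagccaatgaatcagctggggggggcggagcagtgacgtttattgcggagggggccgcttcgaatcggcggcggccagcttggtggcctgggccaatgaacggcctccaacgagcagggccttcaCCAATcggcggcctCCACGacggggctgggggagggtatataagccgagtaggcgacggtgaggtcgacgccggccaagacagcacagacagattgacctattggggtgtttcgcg
HSP90B1: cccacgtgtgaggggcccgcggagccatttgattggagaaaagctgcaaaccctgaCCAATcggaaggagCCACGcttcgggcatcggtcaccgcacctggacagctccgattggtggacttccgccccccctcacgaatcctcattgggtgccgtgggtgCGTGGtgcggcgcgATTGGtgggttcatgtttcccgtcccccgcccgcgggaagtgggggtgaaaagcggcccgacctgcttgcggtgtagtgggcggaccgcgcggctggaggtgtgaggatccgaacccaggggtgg

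The element begins 52 bases before the start in XBP1 and 66 bases before it in HSPA5, and HSP90B1 holds 2 copies, one on each strand. Of the 22 genes 20 had a window in the table, and 7 of them held the element (HSPA5, HSP90B1, PDIA6, CALR, CANX, XBP1 and CRELD2). Of all 27305 genes with a window 25 did (0.0916%). The list was drawn up as targets of factors that bind this element, so its share is no result of these data. Differences between the inhibitors ran from 0.06 (CANX) to 0.43 (XBP1) in the 7. PDIA4 (0.34) and HERPUD1 (0.37) had a window and no match to these letters. This motif was added after values were seen, and a match describes letters and is not a measured site. Of the genes past the threshold with a window (10 higher, 8 lower), XBP1 alone held it. The xenobiotic response element GCGTG, also searched on both strands, was in 8 of the 10 and 6 of the 8, beside 40.6% of all genes. It was also in 13 of the 20 chaperone windows (65.0%). The antioxidant response element TGACNNNGC was in 2 of the 10 and 3 of the 8 (16.1% of all genes). The E-box CACGTG was in 0 and 1 (8.77%), the ATF4 element TGATGNAA in 1 and 0 (4.46%) and the sterol element TCACNCCAC in 0 and 0 (1.39%). The shares of all genes are over every gene with a window, including genes not tested in Mel92.1, so they are no matched background. A gene with several windows counted if any of them matched. No share of letters was tested.

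XBP1 measured 99.8, 97.4 and 97.9 CPM with DMSO, 79.0, 71.3 and 70.6 CPM with UNC0642 and 99.8, 96.3 and 101.3 CPM with A366. The A366 and DMSO libraries overlapped and all UNC0642 libraries were lower, with a difference between the inhibitors of 0.43 ± 0.07 (log2, adjusted p = 0.0402, edgeR; 0.0142 without UNC0642 replicate 1). PDIA4, a disulfide isomerase of the endoplasmic reticulum, had 338 to 345 CPM with DMSO, 274, 263 and 264 CPM with UNC0642 and 333, 337 and 343 CPM with A366, a difference of 0.34 ± 0.05 (adjusted p = 0.0365). UNC0642 fell below DMSO in both (-0.42, adjusted p = 0.0168, and -0.35, adjusted p = 0.0098).

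The remaining members did not pass, HERPUD1, a membrane protein of protein degradation, being nearest. It stood at 29.7, 30.1 and 27.7 CPM with UNC0642, 38.6, 37.2 and 37.4 CPM with A366 and 42.0 to 44.7 CPM with DMSO, a difference of 0.37 (95% interval 0.21 to 0.53, adjusted p = 0.124). HSPA5, the main chaperone of the compartment, had 701, 665 and 694 CPM with UNC0642 and 831, 857 and 817 CPM with A366 (0.28, 0.16 to 0.41, adjusted p = 0.132). HYOU1, its co-chaperone, differed by 0.36 (0.20 to 0.53, adjusted p = 0.134). At the other end SEL1L differed by -0.02 (-0.46 to 0.42), and by 0.06 without UNC0642 replicate 1. The median over the list of the log2 level against the DMSO mean was -0.13, -0.18 and -0.24 in the UNC0642 libraries and lay between -0.00 and 0.04 in the A366 libraries.

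Genes of the melanocyte lineage were on the other side. They comprise the factors that keep pigment cell identity and the enzymes and melanosome proteins that make pigment. Of 24 in the list 22 were tested, TRPM1 passed lower with A366 and none passed higher, 8 were lower at an unadjusted p under 0.05 (3.88% of all genes were), and in 10 all A366 libraries lay below all UNC0642 libraries (6.36% of all genes did). The difference lay above 0 in 1 of 22, PAX3, with a median of -0.16 (2 of 22 and -0.21 without UNC0642 replicate 1), whereas under library size alone it was above 0 in 13 of 22 with a median of 0.06, which is below the shift of 0.25 in all genes.

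TRPM1, a cation channel of melanocytes whose intron holds MIR211 (chromosome 15, 31001061 to 31161273, minus strand), measured 62.1, 59.0 and 57.0 CPM with DMSO, 93.1, 79.5 and 83.0 CPM with UNC0642 and 51.1, 53.8 and 54.2 CPM with A366. All UNC0642 libraries exceeded all the others. The difference was -0.68 ± 0.08 (95% interval -0.86 to -0.51, adjusted p = 0.0093, edgeR; 0.0069 without UNC0642 replicate 1), and UNC0642 exceeded DMSO by 0.52 (adjusted p = 0.0138). A366 differed from DMSO by -0.16 (adjusted p = 1).

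PMEL, the protein of melanosome fibrils, had 9806, 10190 and 9178 CPM with UNC0642, 7473, 7224 and 7948 CPM with A366 and 7784 to 8509 CPM with DMSO, with a difference of -0.37 (-0.50 to -0.23) that did not pass (adjusted p = 0.0621). MLANA, a melanosome membrane protein, had 504, 539 and 516 CPM with UNC0642 and 425, 390 and 434 CPM with A366 (-0.32, -0.46 to -0.18, adjusted p = 0.124). DCT, an enzyme of melanin synthesis, was low throughout, at 9.72, 4.31 and 5.38 CPM with UNC0642 and 1.08 to 2.01 CPM with A366 (-2.04, adjusted p = 0.134). The lineage factors lay close to 0: MITF differed by -0.04 (-0.22 to 0.14) and SOX10 by -0.04 (-0.16 to 0.08), and without UNC0642 replicate 1 by -0.09 and -0.07.

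**Figure D3:**
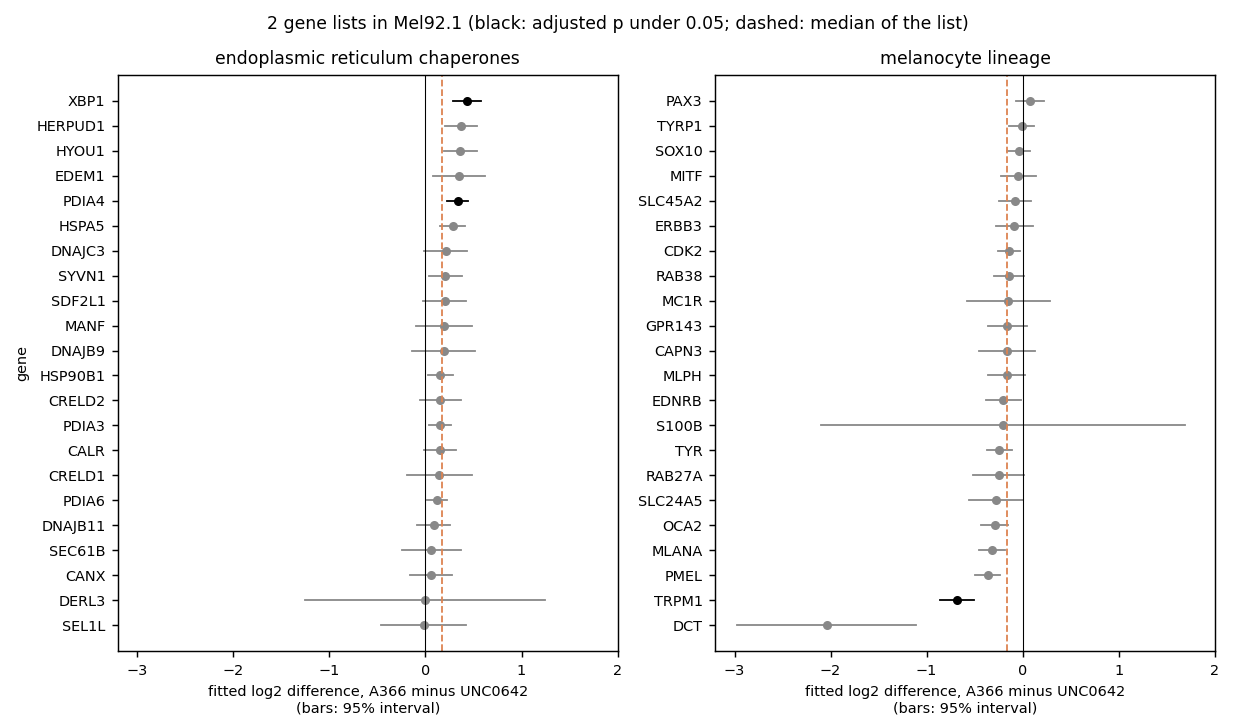
Fitted log2 difference, A366 minus UNC0642 in Mel92.1, of the 22 tested endoplasmic reticulum chaperones (left) and the 22 tested melanocyte lineage genes (right), with 95% intervals as bars, genes past the threshold in black and the median of each list dashed. The chaperones run from -0.02 (SEL1L) to 0.43 (XBP1) and the lineage genes from -2.04 (DCT) to 0.08 (PAX3).

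Targets of YAP and TEAD, the transcription factors that the Hippo kinases restrain, were listed after AJUBA and CYR61 had been seen. Of 30 tested, AJUBA passed (0.103% of all genes passed higher), 24 had a difference above 0 and the median was 0.21 (0.16 without UNC0642 replicate 1), beside 0.01 over all genes, and CYR61 passed as well without UNC0642 replicate 1. AMOTL2, a junction protein that binds YAP, had 82.4, 65.8 and 71.95 CPM with UNC0642 and 93.7, 100.5 and 88.9 CPM with A366 (0.37, 0.16 to 0.57, adjusted p = 0.291). AJUBA and CYR61 are themselves among the 30. In MP41 the median of the list was -0.10 and 12 of 31 were above 0. There 7 passed higher and 7 lower with A366, beside 21.1% and 22.0% of all genes.

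No member of 22 further lists passed edgeR's quasi-likelihood test. They hold 1051 genes counted once per list. Of these, 23 were higher and 74 lower at an unadjusted p under 0.05 (3.32% and 3.88% of all genes were). At the adjusted threshold limma on log2(CPM + 1) called none of them, DESeq2 called 8 higher and 11 lower, and voom 9 and 12. Among all 14528 genes DESeq2 called 111 higher and 103 lower, and voom 97 and 117. Cytosolic ribosomal proteins had a difference above 0 in 2 of 84 and a median of -0.19, with 16 lower at an unadjusted p under 0.05 (beside the same 3.88%) and 1 without UNC0642 replicate 1, and under library size alone 67 of 84 were above 0 with a median of 0.05, below the shift of 0.25. Nuclear oxidative phosphorylation subunits were above 0 in 10 of 76 (median -0.13), and in 4 of 76 (median -0.10) without UNC0642 replicate 1. The 7 ribosomal RNA genes had a median of -1.31, and -0.68 without UNC0642 replicate 1, with 4 lower at an unadjusted p under 0.05.

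Lists of immune recognition were among the 22. Interferon-stimulated genes were above 0 in 21 of 33 with a median of 0.09, and 2 were lower at an unadjusted p under 0.05 (3.88% of all genes were). Without UNC0642 replicate 1 they were above 0 in 19 of 33 with a median of 0.01, and 2 were higher at that p. In that fit 1198 of all 14776 genes had an unadjusted p under 0.05, in either direction. With all 9 libraries, genes of the major histocompatibility complex and antigen processing were above 0 in 7 of 22 (median -0.08). Ligands of natural killer cell receptors were above 0 in 4 of 10 (median -0.06). Without that library these became 11 of 22 (median -0.00) and 6 of 10 (median 0.02). Aryl hydrocarbon receptor targets were above 0 in 6 of 8 (median 0.26) and antioxidant targets of NRF2 in 12 of 20 (median 0.06), and without it in 6 of 8 (0.19) and 15 of 20 (0.10). In the last list GCLM, a subunit of the enzyme that starts glutathione synthesis, had 12.7, 17.7 and 13.9 CPM with UNC0642 and 22.0 to 23.4 CPM with A366 (0.61, 0.31 to 0.91, adjusted p = 0.159).

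MP41 offered 6 libraries that the comparison in Mel92.1 had not used, 2 of them under labels of Mel92.1. There far more genes parted the compounds, 21.1% higher and 22.0% lower with A366, in libraries with a smaller spread (biological coefficient of variation 0.109). The share of ribosomal RNA differed between the compounds in MP41 too, in the opposite direction to Mel92.1. It was 5.93%, 8.06% and 10.96% with A366 and 3.59%, 5.14% and 3.55% with UNC0642, without overlap. The part of that share in the differences in MP41 and between the lines was not tested. Of the 15 genes higher with A366 in Mel92.1, 10 passed higher in MP41 and 1, CD36, passed lower. Of the 9 lower genes, 4 passed lower and none passed higher. The difference between the lines was itself tested in a fit of all 18 libraries. It passed for 7 of the 15 and 6 of the 9, beside 18% of all genes. These genes were chosen on their difference in Mel92.1, which is a part of that test. A share above that of all genes therefore cannot show that they depend more on the line.

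ANXA1, AJUBA, DOK5, PDIA4, TRIB2 and PRRC2C parted the compounds in the same direction in both lines, and their differences between the lines did not pass. ANXA1 measured 5.74, 4.92 and 5.07 CPM with UNC0642 and 9.46, 9.98 and 10.4 CPM with A366 in MP41, a difference of 0.92 (adjusted p = 0.000252) beside 1.06 in Mel92.1. BANCR stood at 14.7, 15.5 and 13.3 CPM with UNC0642 and 34.2, 27.2 and 32.3 CPM with A366 in MP41 (1.11, adjusted p = 0.000144). MKI67 was far more abundant in MP41, at 531, 409 and 501 CPM with UNC0642 and 228, 298 and 189.5 CPM with A366, and fell there by 1.01 (adjusted p = 0.000401).

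XBP1 parted the compounds further in MP41 than in Mel92.1, at 51.0, 65.9 and 54.2 CPM with UNC0642, 123, 113 and 124 CPM with A366 and 69.8 to 81.9 CPM with DMSO (1.07, adjusted p for the difference between the lines 0.0035). Its list was also higher there, with a median of 0.41, 14 of 22 passing higher and 2 lower. For the melanocyte lineage the median in MP41 was 0.07, with 9 of 24 passing higher and 6 lower. Of all genes in MP41, 21.1% passed higher and 22.0% lower. The median over the genes tested in both lines was 0.003 there. PMEL, lower with A366 in Mel92.1 without passing, stood at 5153 to 5311 CPM with UNC0642 and 5893 to 7177 CPM with A366 in MP41 (0.32, adjusted p = 0.0014). EHMT2 was higher with A366 in MP41, at 124 to 127 CPM against 101.4 to 108.9 CPM (0.28, adjusted p = 0.0034), and EHMT1 lower, at 38.5 to 42.9 CPM against 43.55 to 50.4 CPM (-0.22, adjusted p = 0.0373), and the differences between the lines did not pass (adjusted p = 0.466 and 0.412).

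The 3 genes that stood in Mel92.1 with the share of ribosomal RNA as a covariate had other values in MP41. OLFML2A was scarce in MP41, at 2.79, 2.99 and 2.54 CPM with UNC0642 and 2.20, 1.70 and 1.94 CPM with A366, on the opposite side of 0 (-0.51, adjusted p = 0.0710) from Mel92.1 (1.04). ZC3H13 stood at 1056 to 1127 CPM with UNC0642 and 966 to 1059 CPM with A366, a difference of -0.09 (adjusted p = 0.195). IDH1 differed by 0.04 there (adjusted p = 0.524). In each of the 3 the difference between the lines passed, with adjusted p of 0.000235, 2.93e-05 and 2.91e-05.

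**Figure D4:**
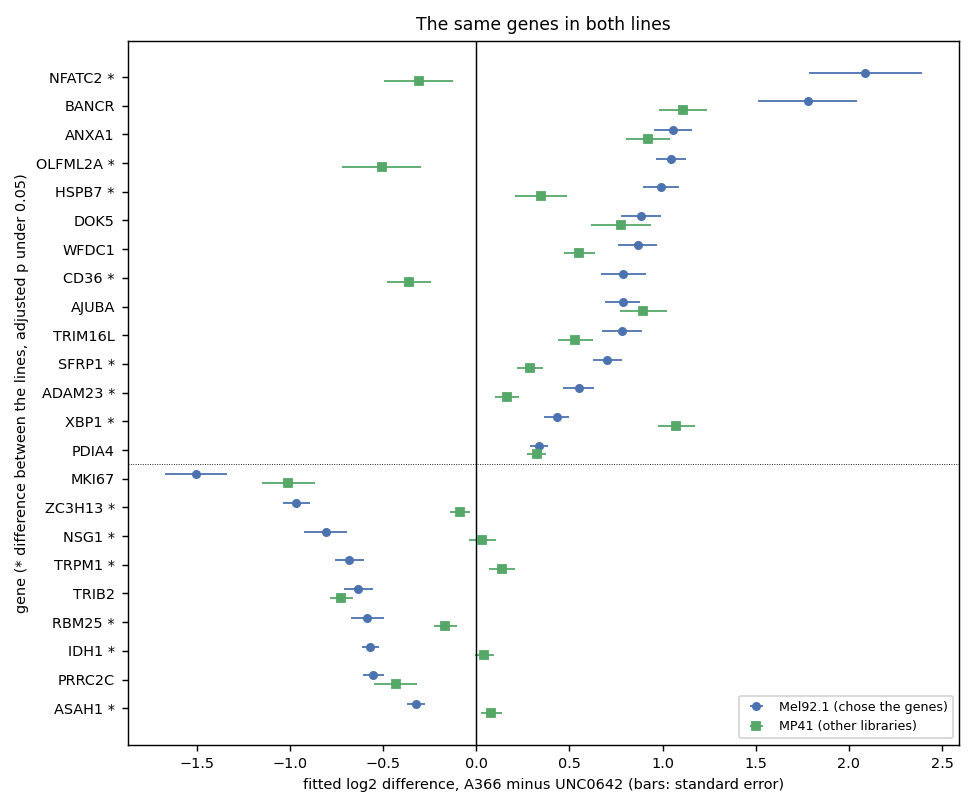
Fitted log2 difference, A366 minus UNC0642, of 23 of the 24 genes in Mel92.1 (blue circles, libraries that chose the genes) and in MP41 (green squares, other libraries), with standard errors as bars and an asterisk where the difference between the lines passed. ANXA1, DOK5, AJUBA, PDIA4, MKI67, TRIB2 and PRRC2C lie on the same side in both lines, while NFATC2, OLFML2A and CD36 lie above 0 in Mel92.1 and below it in MP41.

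Of the 24 genes, 10 overlap an annotated gene on the opposite strand and 6 one on the same strand (on the opposite strand, IDH1 with IDH1-AS1 and NSG1 with STX18). The study's methods describe strand-specific libraries made with dUTP, and whether the counting used strand is not given in the sources used here. If it did not, reads of such pairs could not be told apart.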

How the data were processed

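RNA of 18 cultures of Mel92.1 and MP41 was sequenced, and the authors deposited expected counts of 26475 genes, one column per library, as RSEM gives them. The submitters' processing notes name RSEM 1.2.15, Bowtie2 2.1.0 and hg38, whereas the study's methods describe Bowtie2 with TopHat, FPKM values and a mouse build. Selection of polyadenylated RNA by oligo-dT is named in the extract protocol and depletion of ribosomal RNA in the series text, the study's methods describe strand-specific libraries made with dUTP, and whether strand entered the counting is not given in the sources used here. Fractional counts were rounded for the count tests.

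Libraries were grouped by line and treatment, with A366 replicates 2 and 3 of both lines exchanged between the lines. The expression values that the study gives for each Mel92.1 library matched the placed library more closely than any other. For MP41 no such match was made. Its A366 replicates 2 and 3 as placed held genes found in MP41 but not in Mel92.1 at 110% and 108% of their DMSO level. The main comparison used edgeR 4.0.16 (R 4.3.3) with filterByExpr, TMM factors, a quasi-likelihood test on the group means of the 9 Mel92.1 libraries and Benjamini-Hochberg adjustment over all genes tested, with a threshold of 0.05. Every adjusted p named in the text comes from edgeR unless another tool is named, and all tests were two-sided. Levels are CPM on the TMM-scaled library size, and fold changes are fitted log2 values with standard errors. MP41 was fitted alone in the same way, and the difference between the lines was tested as an interaction in 1 fit of 18 libraries. P-values measure the spread between these libraries. Of the genes that passed, 1 is counted and not reported here by name. No pair of libraries of a group was alike within sampling noise, and 0 columns were left out. A366 replicates 1 and 2 of Mel92.1 were the most alike, with a chi-square of their counts of 7.0 per gene. The next pair, DMSO replicates 1 and 2, had 50.6. Why those A366 libraries were so alike was not tested.

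The genes and lists were chosen with earlier results of these data known. Genes were named where they passed, reached 1 CPM in an inhibitor group and did not overlap between the inhibitors, up to 12 in each direction with the next by unadjusted p filling the lower side, in both the fit with and that without UNC0642 replicate 1. EHMT2, EHMT1, the 8 genes of the study and the members with the lowest p of 32 lists, up to 3 each, were added. XBP1, PDIA4 and HERPUD1 were so named from their list. ADAM23, SERPINE2 and the further genes that passed without UNC0642 replicate 1, and HSPA5, HYOU1, SEL1L, HSP90B1, SOX10, MITF and PAX3, were chosen after their values were seen, as was the list of YAP and TEAD targets.

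Gene positions came from GENCODE release 29 and promoter letters from RefSeq windows of 35116 starts of 27305 genes. GC content was known for 97.0% of the genes tested. Alternatives changed the scaling, the low-count filter, the libraries in the fit, the covariates and the tool (DESeq2 1.42.0, limma 3.58.1). Figures were drawn with matplotlib 3.10.9 under Python 3.11.15 (numpy 2.4.6, pandas 2.3.3). The fits were tested on simulated data with known changes. Depth, from 23601156 to 62941462 counts, sets the counting error. UNC0642 replicate 1 of Mel92.1, the shallowest library, also had the fewest genes with a count. It had 13344, against 16296 to 17492 in the other Mel92.1 libraries.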

Additional observations from a re-analysis of the deposited data

Results flagged for a closer look

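The difference between A366 and UNC0642 differed between the lines for 38 of 83 named genes by the interaction test of edgeR across all 18 libraries. Of all genes 18% did. Many of the 83 were chosen on their difference in Mel92.1, which is a part of the test, so the 2 shares cannot be compared. The value given is the difference in Mel92.1 minus that in MP41, on the log2 scale. It lay above 0 for 14 genes and below 0 for 24. The fitted differences had opposite signs in the 2 lines in 19 of the 38. Of these 19, 10 passed in MP41, and CD36 alone passed in both lines.

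Among the genes higher with A366 in Mel92.1, the difference exceeded that of MP41 by 2.39 for NFATC2, 1.525 for OLFML2A, 1.12 for CD36, 0.62 for HSPB7, 0.39 for SFRP1 and 0.36 for ADAM23. Among those that passed without UNC0642 replicate 1 it did so by 2.38 for IL2RB, 2.37 for NRCAM and 0.60 for SORBS2. XBP1 (-0.67), HERPUD1 (-0.93), CYR61 (-0.80) and C1orf198 (-0.42) were parted further in MP41, in the same direction.

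Among the genes lower with A366 in Mel92.1 the value was -0.90 for ZC3H13, -0.87 for NSG1, -0.85 for TRPM1, -0.64 for IDH1, -0.445 for RBM25 and -0.43 for ASAH1. For genes of the second fit it was -1.66 for EEF1A2, -1.60 for HTN1, -1.05 for C10orf11, -0.995 for FGFBP3, -0.82 for POU3F1 and -0.36 for ST3GAL6. PMEL (-0.72) and MLANA (-0.57), which did not pass in Mel92.1, were higher with A366 in MP41. Of the other genes named that did not pass in Mel92.1, the value was 0.90 for GCLM, -0.41 for AMOTL2, -0.28 for C1orf21, -0.27 for NEFH, 0.39 for MITF and -0.87 for SLAMF7, which was parted by 0.92 in MP41 and 0.09 in Mel92.1. Of the cell type markers and promoter genes named, which did not pass in Mel92.1 either, it was 0.95 for COL1A1, 3.87 for KRT18, -2.085 for S100B, 0.24 for TYRP1 and -0.41 for CALR. RPL17-C18orf32, not counted among the 83 and at 0 with A366 in Mel92.1, also passed and is given no value.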

How the results depend on the processing

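In the 25 alternatives that kept the placement of the libraries, each of the 24 genes kept its direction. The count of genes past the threshold moved more. It was 10 with library size alone as the scaling, 10 with only the 6 libraries compared, 147 with all 18 libraries, 214 with DESeq2, 214 with voom and sample weights, and 290 at an unadjusted p and a fold change of at least 1.5. It was 24 with RLE factors, 28 without a filter, 36 with a GC offset, 26 with limma on log2(CPM + 1) and 18 at an adjusted p and that fold. It was 0 with A366 replicate 1 as the only A366 library. Chosen after seeing the data, the share of ribosomal RNA as a covariate gave 3, and the GC offset without UNC0642 replicate 1 gave 78. Fewer libraries enter the fit of 6 and more enter that of 18, and for the others the cause was not tested.

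Leaving out 1 library at a time gave between 5 and 47 genes. Without UNC0642 replicate 1 the count was 47. It fell to 14 and 11 without UNC0642 replicates 2 and 3, to 13 and 14 without DMSO replicates 2 and 3, and to 5, 7 and 7 without A366 replicates 1, 2 and 3. OLFML2A and ZC3H13 passed in 24 of the 25 alternatives, HSPB7 and IDH1 in 23, ANXA1 in 22 and ASAH1 in 8.

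With the libraries as labelled the count was 0. There ANXA1 (-0.072), OLFML2A (-0.38), HSPB7 (-0.019), DOK5 (-0.21) and CD36 (-0.57) turned negative, and MKI67 (1.05), ZC3H13 (1.204), NSG1 (1.41), TRIB2 (1.01), RBM25 (1.05) and PRRC2C (0.22) turned positive, with 2 libraries of the other line in the A366 group.

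The replicate numbers did not pair the libraries in a regular way. Same-numbered UNC0642 and A366 libraries correlated at -0.09, -0.30 and -0.52 in their deviations from the group means. Same-numbered DMSO and A366 libraries correlated at 0.31, -0.69 and 0.83, and DMSO and UNC0642 libraries at -0.18, 0.28 and -0.46. The highest value, 0.85, joined DMSO replicate 1 and A366 replicate 2. Where such shared deviations come from was not tested. With the replicate block 6 genes passed (ANXA1, OLFML2A, HSPB7, SFRP1, ZC3H13 and IDH1), and 6 passed with the block and a GC offset.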
